A study of Mus musculus with 6 samples.

Results

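In single-cell RNA sequencing of samples labelled with the YUMM2.1 melanoma line, 294 of 6364 kept cells were monocytes carrying transcripts of Ace or Adgre4. A cell was a member when its droplet held at least 1 unique molecular identifier (UMI, the tag that counts 1 captured transcript) of Csf1r, fewer than 5 UMIs of C1qa, C1qb and C1qc together and at least 1 UMI of Ace plus Adgre4, with 0 UMIs of Flt3, of Cd3e and Cd3d and of Ncr1. Of the 6364 cells, 1065 carried Csf1r, 892 of these stayed under the C1q limit, 322 of those had Ace or Adgre4, and the 3 remaining criteria left 304, 295 and 294 cells. The genes of this rule chose the cells, so their levels are a description and received no test. Ace (ENSMUSG00000020681) lies at chr11:105967945-105989964 on the plus strand and Adgre4 (ENSMUSG00000032915) at chr17:55749984-55853662 on the plus strand of GRCm38.

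YUMM2.1 is a mouse melanoma line, and the samples compared here are labelled Empty vector (EV, the control insert) and Bmal1 WT (an insert of the wild-type clock transcription factor Bmal1). Each group was 1 library holding 3 hashtags, antibody-borne barcodes that mark cells of 1 sample: h1, h7 and h8 in EV and h3, h5 and h9 in WT. The labels name only the melanoma line as source and say neither whether the cells came from tumours nor from which animals, so p-values measure only the spread between hashtags, which may be technical. All hashtags of a group shared a library, and group and library cannot be told apart. The files labelled Bmal1 bHLH were byte-identical to the WT files in 3 of 3 cases and were not analysed. EV contributed 180 members (96 with h1, 15 with h7, 57 with h8, 3 with none and 9 with several) and WT 114 (68 with h3, 20 with h5, 22 with h9, 1 with none and 3 with several). The 278 members with 1 hashtag entered the sums per hashtag, while levels given over a whole population or a subset of it used all its cells. Median depth was 8140.5 UMIs per member in EV and 10204.5 in WT. Members held 104525 to 961488 UMIs per hashtag, with the least in EV h7, so values of that hashtag are the least precise. The libraries shared 5 cell barcodes, of which 0 belonged to members.

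Monocytes leave the bone marrow as classical, Ly6c-high cells that enter inflamed tissue through the chemokine receptor Ccr2. A part of them convert into non-classical, Ly6c-low cells that crawl along the vessel wall, clear debris from it and depend on the nuclear receptor Nr4a1. Non-classical cells use the integrin LFA-1 and the fractalkine receptor Cx3cr1 for patrolling and carry the Fc receptor Fcgr4. Ace, the angiotensin-converting enzyme, and Adgre4, an adhesion receptor of the same family as F4/80, are both higher in the non-classical than in the classical cells of mouse blood. Csf1r, the receptor for the growth factor Csf1, marks monocytes and macrophages, and C1q is typical of tissue macrophages.

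The members split over the gene that admitted them. Both Ace and Adgre4 were present in 149 (50.7%; 95% exact binomial interval 44.8% to 56.5%), Ace alone in 87 (29.6%) and Adgre4 alone in 58 (19.7%). A member held a median of 2 Ace UMIs (range 0 to 22), 1 Adgre4 UMI (0 to 13) and 4 Csf1r UMIs (1 to 20), and 279 of 294 had no C1q UMI. As a measure of free RNA, 0.129% of 1551 T cells without Csf1r had an Ace UMI and 0.0645% an Adgre4 UMI, against 80.3% and 70.4% of members chosen by these genes, at a median depth of 5085 UMIs against 9188 in members. Depth also bears on the count of members, since 79 members (26.9%) entered with a single UMI, and after thinning to 2000 UMIs per cell 42.9% of members kept an Ace UMI.

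The label non-classical held only in part. Ly6c2, the classical surface marker, had at least 1 UMI in 218 of 294 members (74.1%; 68.7% to 79.1%), and 48.8% after thinning, against 75.2% of thinned Ly6c2-carrying monocytes without Ace or Adgre4, which were chosen by that gene. T cells without Csf1r carried Ly6c2 in 27.7% after thinning, a cell type that also expresses it. Ccr2 reached 70.4% of thinned members and 77.5% of those other monocytes. The cells are therefore called Ace/Adgre4 monocytes here and not a pure non-classical population. The 76 members without Ly6c2 were shallower, at a median of 6464 against 9841.5 UMIs, and had less of the classical genes per 1000000 UMIs (CPM). F13a1, a coagulation factor subunit, was at 33.8 CPM (exact Poisson interval 21.2 to 51.2) without Ly6c2 and 291 CPM (270 to 314) with it. Eno3, a muscle-type enolase, stood at 67.6 against 26.2 CPM and Spn, the sialoglycoprotein CD43 of patrolling monocytes, at 189 against 87.1 CPM. These intervals cover counting error only, and Ly6c2 itself made the split, so the values carry no test.

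Levels across the threshold of the rule moved by steps. Cells that met every other criterion but had 0 UMIs of Ace and Adgre4 numbered 451, 79 members had 1 UMI and 131 had 5 or more, at median depths of 7801, 8407 and 9420 UMIs. Treml4, a receptor for dying cells that marks blood non-classical monocytes, stood at 6.93 CPM (4.64 to 9.96) in the first, 17.2 CPM (9.65 to 28.4) in the second and 139 CPM (119 to 160) in the third. In Treml4, members with a single UMI were thus much closer to the cells just outside than to the members with the most. The adhesion molecule Ceacam1 showed the same order, at 21.5, 33.3 and 250 CPM, as did the G protein subunit Gngt2, at 92.7, 164 and 703 CPM. Nr4a1 read 677, 732 and 1655 CPM. The reverse order held for Fn1, the fibronectin gene of classical monocytes, at 2954, 2307 and 715 CPM, and for the matrix protein gene Spp1, at 4447, 1446 and 68.5 CPM. Ly6c2 had no such order, at 792, 831 and 562 CPM. Members with both genes also stood apart from those with 1 of them: Treml4 was at 126 CPM with both, 19.1 with Ace alone and 49.2 with Adgre4 alone, and Spp1 at 57.3, 1247 and 716 CPM. These steps describe the rule's own cells and were not tested.

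**Figure D1:**
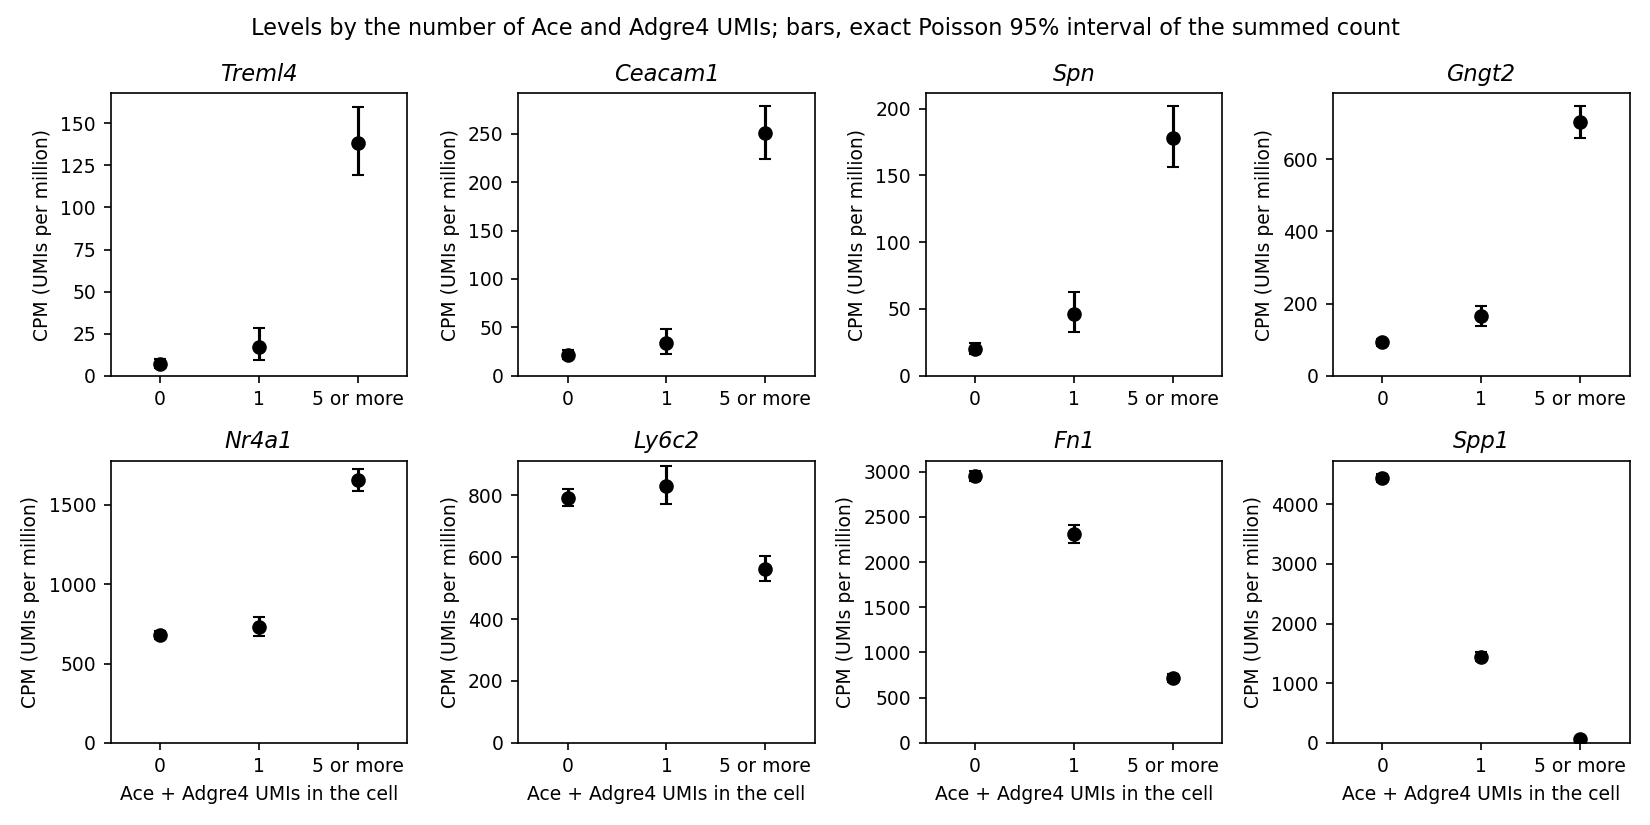
Level in CPM of Treml4, Ceacam1, Spn, Gngt2, Nr4a1, Ly6c2, Fn1 and Spp1 in cells with 0, 1 and 5 or more UMIs of Ace plus Adgre4, with exact Poisson 95% intervals (counting error only). Treml4 went from 6.93 over 17.2 to 139 CPM and Spp1 from 4447 over 1446 to 68.5 CPM, while Ly6c2 was at 792, 831 and 562 CPM.

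The nearest population offered the sharpest comparison. Ly6c2 monocytes, 305 cells with Csf1r and Ly6c2 that met the other criteria and had no Ace or Adgre4, were compared with the members within each of the 6 hashtags. These compared cells were not a pure classical population. Their 13 macrophage markers summed to 9291 CPM, against 9645 CPM in C1q-high macrophages and 3267 CPM in members. Their 10 classical markers summed to 13459 CPM, against 7741 and 11878 CPM. Falls of macrophage genes in members are to be read with this in mind. In the members the non-classical genes Treml4, Ceacam1, Spn, Itgal, Gngt2 and Pou2f2 were 3.1 to 8.94 times as high, and Arg1, Spp1 and the chemokines Ccl2 and Ccl7 were 6.4 to 10.4 times lower. The edgeR quasi-likelihood test with the hashtag as a block called 599 of 7265 genes at an adjusted p under 0.05 (8.25%), 378 higher (5.2%) and 221 lower (3.04%) in members. That split turned with the scaling, to 265 higher and 280 lower with TMM factors and 136 and 195 with DESeq2, where the median gene sat at 0.01 and -0.01 instead of 0.10 on the log2 scale. Of 18 listed non-classical genes 17 were abundant enough to test, and 14 of these were higher and 0 lower, against 5.2% of all genes higher; the list's median log2 difference was 1.69. Without the hashtag block the count was 9 of 17, and it was 11 or 12 when any 1 hashtag was left out.

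Treml4 levels in the 6 hashtags ran from 26.9 over a median of 82.5 to 191 CPM in members and from 0 over 6.45 to 16 CPM in Ly6c2 monocytes. No hashtag of the members reached down to the highest of the Ly6c2 monocytes, and the difference was 3.16 ± 0.36 (log2, SE; edgeR adjusted p = 3.92e-05). Ceacam1 ran from 71.7 over 159 to 263 CPM against 14.4 over 23.5 to 50.5 CPM, a difference of 2.34 ± 0.24 (edgeR adjusted p = 1.54e-05). It too was apart in every hashtag. Spn ran from 71.7 over 116 to 175 CPM against 22.2 over 26.1 to 53.1 CPM, 2.04 ± 0.21 higher (edgeR adjusted p = 1.83e-05). Pou2f2, a transcription factor needed for Ly6c-low monocytes, ran from 255 over 352 to 421 CPM against 64.9 over 116 to 177 CPM and was 1.63 ± 0.18 higher. Gngt2 was 2.11 ± 0.18 higher with ranges that overlapped, 254 to 692 CPM in members and 58.3 to 272 CPM in Ly6c2 monocytes. Eno3 (3.72 ± 0.48) and the peptidoglycan receptor Pglyrp1 (2.80 ± 0.34) were low in both populations, with at most 115 CPM. Fcgr4 rose by 0.77 ± 0.17 and Cx3cr1 by 1.31 ± 0.29. Nr4a1 rose by 0.57 ± 0.16 (edgeR adjusted p = 0.0338) with overlapping ranges, 936 to 1461 against 486 to 1359 CPM, and this call was lost without EV h1, without WT h3, without WT h5, with TMM or DESeq2, with the other hashtag assignment and without the hashtag block. The remaining calls of the list were Ear2, Fabp4 and Bcl2, each lost when any of several single hashtags was left out. Klf2 (0.96 ± 0.31, edgeR adjusted p = 0.0725), Cd36 and Cebpb did not pass, and Cd300e was too low to test.

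**Figure D2:**
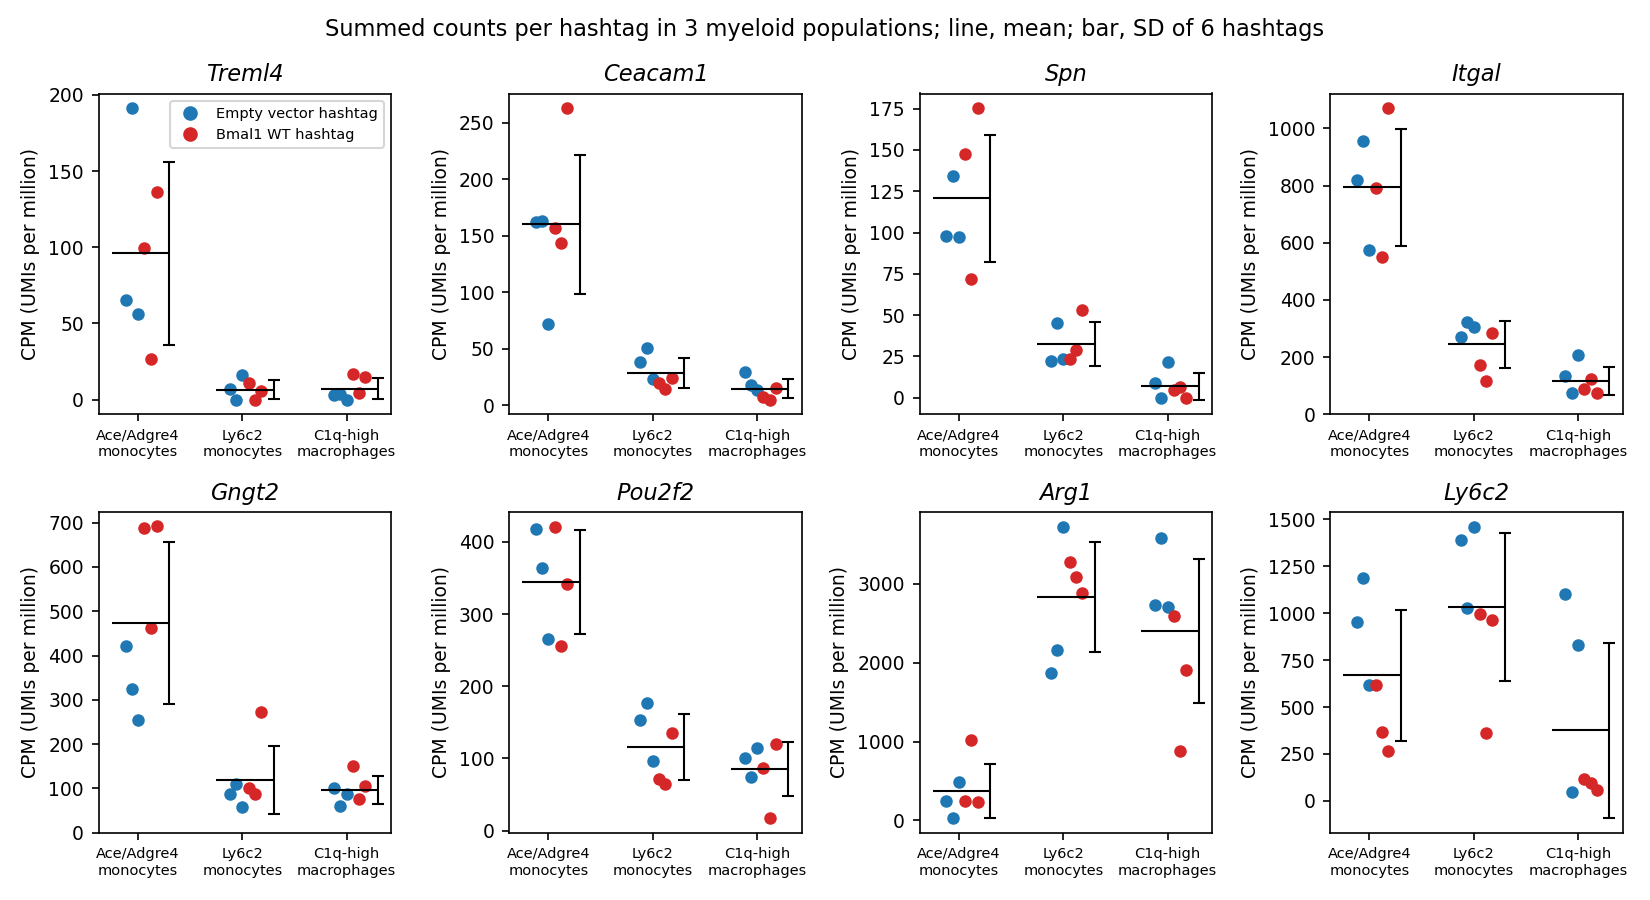
Level in CPM per hashtag of 8 genes in Ace/Adgre4 monocytes, Ly6c2 monocytes and C1q-high macrophages, with the mean and SD of the 6 hashtags. Treml4 points of the members sit between 26.9 and 191 CPM against 0 to 16 CPM in Ly6c2 monocytes, and Arg1 points between 28.7 and 1013 CPM against 1867 to 3722 CPM.

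Adhesion genes carried part of this difference. Of 15 tested adhesion and trafficking genes 5 were higher and 1 lower, against 5.2% of all genes higher and 3.04% lower. Spn, Itgal and Cx3cr1 are shared with the list above. Itgal, the alpha chain of LFA-1, ran from 551 over 804 to 1072 CPM in members and from 115 over 276 to 323 CPM in Ly6c2 monocytes. Its ranges did not overlap, and it was 1.69 ± 0.16 higher (edgeR adjusted p = 9.4e-06). Itga4, the alpha chain of VLA-4, was 1.43 ± 0.15 higher and Itgb1, its partner, 0.64 ± 0.15 higher, the latter lost without EV h1. Itgam, the alpha chain of Mac-1, fell by 0.49 ± 0.11, from a range of 706 to 868 CPM to one of 494 to 653 CPM, a call lost without WT h3. Ccr2 (-0.38 ± 0.14) did not pass the test. The markers given with the rule, which are no independent evidence, went the same way for Clec4a3 (1.64 ± 0.15) and Clec4a1 (1.26 ± 0.17), C-type lectins of the DCIR family. Ifitm6 (0.68 ± 0.21, edgeR adjusted p = 0.051) and Hp (0.26 ± 0.21, edgeR adjusted p = 0.535) did not pass.

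Calls in the signalling, transcription and survival lists are to be read against the 5.2% of all genes called higher and the 3.04% called lower. Of 9 Fc receptor and signalling genes 4 were higher and 0 lower, with Fcgr4 and the Src-family kinases Fgr (0.65 ± 0.14) and Lyn (0.51 ± 0.13) among them, with the call of Lyn lost without EV h1, EV h7 or WT h3. Of 14 transcription factor genes 4 were higher and 0 lower. Besides Pou2f2 and Nr4a1 these were Irf8, a factor of monocyte development (0.77 ± 0.15), and the myeloid master regulator Spi1 (0.51 ± 0.14), whose call was lost without EV h1, WT h3 or WT h5. With TMM factors, with DESeq2 or without the block 2 of the 14 remained called. Of 6 survival genes 1 was higher and 2 lower: Bcl2l1, which encodes Bcl-xL, fell by 1.25 ± 0.24 and the NF-kappa B target Bcl2a1b by 0.87 ± 0.18, while Bcl2 was called higher (edgeR adjusted p = 0.045) with a call lost without EV h1, EV h7, WT h3 or WT h9. Bcl2a1b has near-identical copies, so its counts are uncertain.

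Of 14 tested cytokine and chemokine genes 8 were lower and 0 higher, against 3.04% of all genes lower, with a list median of -0.88. Only 2 of the 14 stayed called without the hashtag block, and 6 to 9 when 1 hashtag was left out. Ccl2, the ligand of Ccr2, ran from 47.8 over 255 to 912 CPM in members and from 167 over 2310.3 to 2768 CPM in Ly6c2 monocytes. It fell by 2.68 ± 0.30 (edgeR adjusted p = 3.19e-05). The ranges overlapped, but all 6 hashtags pointed down. Ccl7, another Ccr2 ligand, fell by 3.16 ± 0.40, Cxcl2 by 0.99 ± 0.13, Il6 by 1.33 ± 0.25 and Vegfa by 0.85 ± 0.13. Tnf (-1.24 ± 0.29) and Ccl3 (-0.93 ± 0.24) were called as well, both lost without EV h8 or WT h3 and Ccl3 also without EV h1, and Ccl4 fell by 0.90 ± 0.18. Il1b was high in both, at a median of 2777 and 2341 CPM, with no call.

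Arg1, which breaks down arginine, ran from 28.7 over 245 to 1013 CPM in members and from 1867 over 2985 to 3722 CPM in Ly6c2 monocytes. No hashtag overlapped, and Arg1 fell by 3.16 ± 0.28 (edgeR adjusted p = 3.95e-06). Fn1 likewise did not overlap, at 759 over 1252 to 1816 CPM against 2414 over 3245 to 7224 CPM, and fell by 1.48 ± 0.19. Spp1 fell by 3.38 ± 0.52 and the mannose receptor Mrc1 by 4.40 ± 0.48, from 120 UMIs to 5. Nos2, the inducible nitric oxide synthase, fell by 2.94 ± 0.42, the ectonucleotidase Nt5e by 2.72 ± 0.33, the microglial marker Tmem119 by 2.84 ± 0.45 and Prelid2 by 2.30 ± 0.46. Tissue factor, F3, fell by 2.68 ± 0.45. Of 11 tested macrophage markers 4 fell, Arg1, Spp1, Mrc1 and Gpnmb (-2.18 ± 0.66), 1 rose, the selenium carrier Selenop (0.83 ± 0.17) and the other 6 were not called, with a list median of -0.19. Over all genes 3.04% were lower and 5.2% higher. With Ccl2, Ccl7, Arg1, Spp1 and Mrc1, the genes Nos2, Nt5e, Tmem119, Prelid2 and F3 were the 10 genes of the largest fall. Of 9 tested classical monocyte markers, Fn1 and F13a1 (-1.58 ± 0.31) fell while Plac8 (0.75 ± 0.13) and Gda (0.43 ± 0.11) were higher; the call of Gda was lost with TMM and without EV h1 or WT h3. Ly6c2 chose the compared cells and was not tested.

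Genes outside the lists led the rise. Slc12a2, a sodium-potassium-chloride cotransporter, had 179 UMIs in members and 2 in Ly6c2 monocytes, a ratio of 84.5 (counting interval 23.0 to 703), and its 19.1 to 117 CPM in members lay above the 0 to 1.46 CPM of the others in every hashtag. Hpgd, which inactivates prostaglandins, ran from 22.2 over 48.6 to 98 CPM against 0 over 1.17 to 20.2 CPM (3.18 ± 0.43). Grk3, a G protein-coupled receptor kinase, ran from 106 over 194 to 344 CPM against 16 over 27.7 to 41.3 CPM (2.72 ± 0.21, edgeR adjusted p = 1.05e-06). Serpinb2, the plasminogen activator inhibitor of monocytes, was 2.39 ± 0.45 higher. The cell adhesion gene L1cam (2.75 ± 0.60), the Rac exchange factor Tiam2 (2.37 ± 0.39) and Gm5547 (2.44 ± 0.55) completed the 10 of the largest rise together with Treml4, Eno3 and Pglyrp1.

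The lists that remain held 0 to 4 calls each against Ly6c2 monocytes, some of them in both directions. None of 7 MHC class II genes and none of 10 heat shock and dissociation genes were called. The 16 interferon-stimulated genes had a median log2 difference of 0.00. Of 10 inhibitory receptors and ligands Clec4a1 and Clec4a3, both markers given with the rule, were higher. Cd274, which encodes PD-L1, was lower (-0.61 ± 0.16), a call lost without EV h1, WT h3 or WT h5. Of 10 lipid-handling genes, the lipase Lpl fell by 2.24 ± 0.28 and Abca1 by 1.53 ± 0.42, and Lipa (0.95 ± 0.22) and Fabp4 (1.83 ± 0.52) were called higher; the calls of Abca1, Lipa and Fabp4 each depended on single hashtags. Of 7 tested clock genes Bhlhe40 was lower (-0.67 ± 0.15), lost without EV h1. These shares, 0 to 4 calls per list, are to be read against the 8.25% of all genes.

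**Figure D3:**
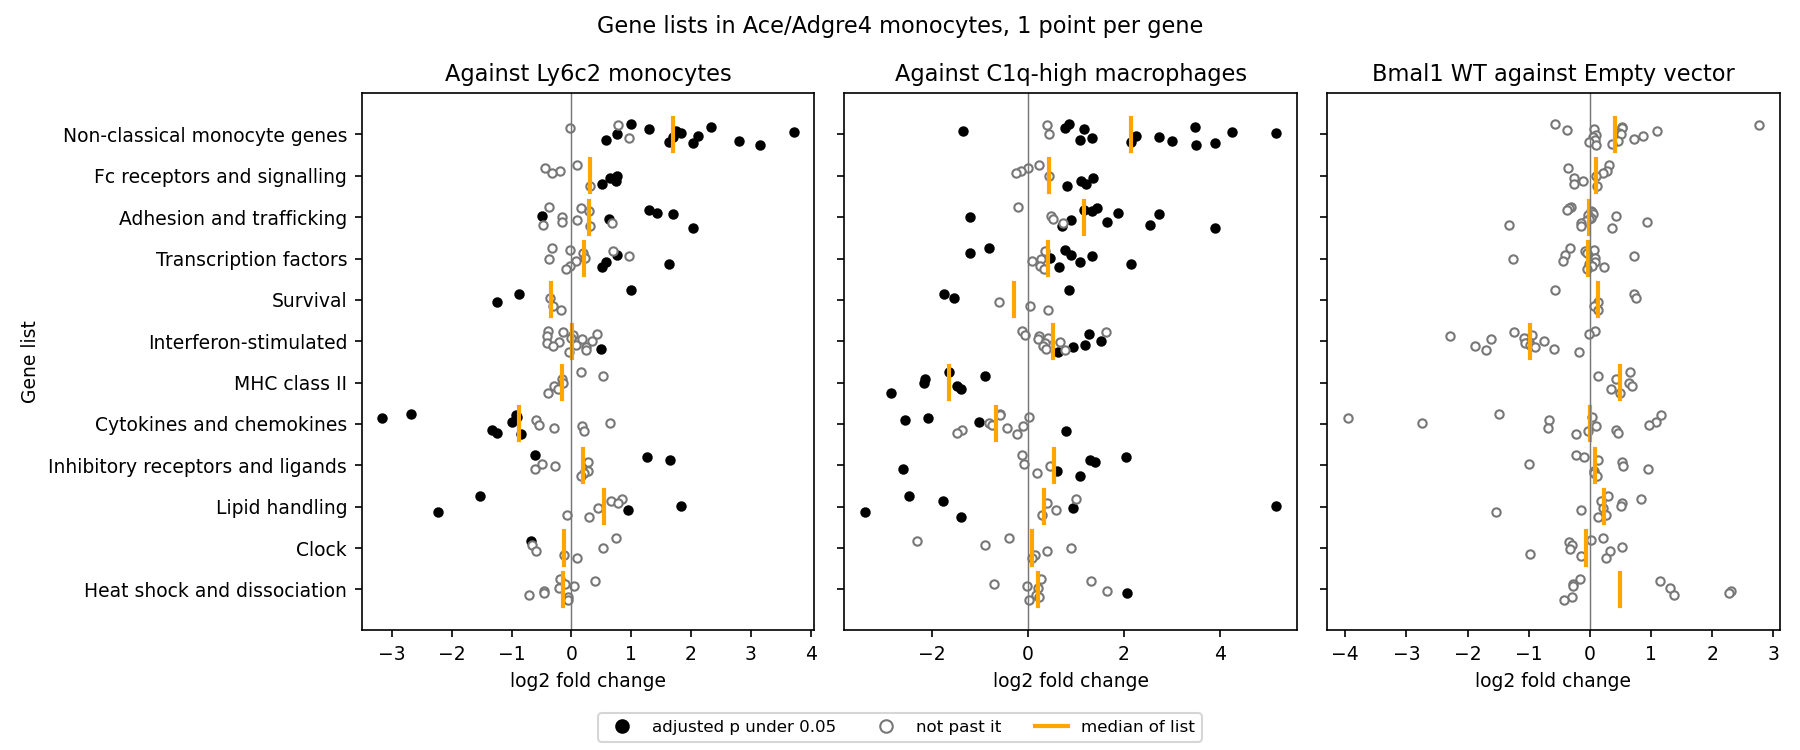
Log2 difference of each tested gene of 12 lists in 3 comparisons: members against Ly6c2 monocytes, members against C1q-high macrophages, and Bmal1 WT against Empty vector within members; filled points passed an adjusted p of 0.05 and bars mark list medians. Non-classical genes lie to the right in both population comparisons (medians 1.69 and 2.15), MHC class II genes lie left only against C1q-high macrophages (median -1.65), and interferon-stimulated genes lie left in the group comparison (median -0.99), in which no gene was called.

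A group of fibroblast genes was called higher in members and rests on 1 hashtag. Col1a1, Col1a2, Col3a1, Dcn and Lum were all called against Ly6c2 monocytes and against C1q-high macrophages. Their summed level was 2738 CPM in members of EV h8 and between 4.16 and 9.74 CPM in members of the other 5 hashtags. A single member held 653 of the 682 UMIs that all members had of 8 marker genes of other cell types (Cd79a, Ms4a1, Trac, Cd3g, Col1a1, Col3a1 and Sox10 among them), and 16 of 294 members held any. Without the cells over 30000 UMIs, 3 of them members, none of the 5 genes remained abundant enough to test, and DESeq2 called none. The non-classical count was 15 of 17 without those deep cells and 15 of 17 without the cells that held such a marker. Of the B cell markers Cd79a and Ms4a1 were at 0 in members, of the T and NK cell markers Cd3g and Cd8a, of the neutrophil markers S100a9 and Ly6g, and of the dendritic cell markers Ccr7 and Siglech. The summed T and NK cell list stood at 135 CPM in members of EV h1 and at 6.83 to 17.9 CPM in the other hashtags, and the summed melanoma list at 6.24 to 34.2 CPM.

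C1q-high macrophages, 152 cells with Csf1r and 5 or more C1q UMIs, differed more widely. These cells also carried markers of other cell types. Their 10 dendritic cell markers summed to 693 CPM, against 98.3 CPM in members. Their 7 neutrophil markers summed to 5285 CPM in WT h9 and to 7.85 to 114 CPM in the other hashtags. Falls in members are to be read with this in mind. The non-classical genes Spn, Treml4 and Itgal were again higher in the members, and the antigen presentation genes H2-Ab1, H2-Eb1 and Cd74 were 3.13 to 7.23 times lower. The edgeR test called 1240 of 7323 genes (16.9%), 776 higher (10.6%) and 464 lower (6.34%) in members, with a split of 612 and 579 under TMM and 404 and 408 under DESeq2. The comparison shares its members with the preceding one, so the results are not independent of each other. Of 17 non-classical genes 14 were higher and 1 lower, the eosinophil-type ribonuclease Ear2 (-1.34 ± 0.28), a call lost without the cells that held markers of other cell types.

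All 7 MHC class II genes fell, against 6.34% of all genes, with a median of -1.65, and all 7 fell under each alternative. H2-Ab1, a class II beta chain, ran from 497 over 954 to 1909 CPM in members and from 3084 over 3827 to 6921 CPM in the macrophages. The ranges were apart, with a fall of 2.15 ± 0.21 (edgeR adjusted p = 7.91e-06). H2-Eb1 fell by 2.85 ± 0.32 and the invariant chain Cd74 by 1.65 ± 0.17. H2-DMb2, an editor of class II peptides outside the list, fell by 4.71 ± 0.43. Against all 771 other Csf1r cells the 7 genes fell as well (7 of 7, median -1.23), but when the compared cells also met every other criterion of the rule 0 of 7 passed the adjusted threshold, 3 had an unadjusted p under 0.05 in the lower direction and the median was -0.38.

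Of 13 macrophage markers 9 fell and 0 rose, against 6.34% of all genes lower and 10.6% higher. Mrc1 ran from 0 over 0.52 to 8.96 CPM in members and from 158 over 222 to 468 CPM in macrophages (-6.68 ± 0.36). Apoe, a lipid carrier, fell by 1.76 ± 0.31, Arg1 by 2.92 ± 0.49 and the lipid sensor Trem2 by 1.38 ± 0.22. The chemokines Ccl17 and Ccl24 fell by 7.64 ± 0.45 and 5.01 ± 0.64 and the elastase Mmp12 by 6.38 ± 0.52. The lectin Mgl2, one of the listed dendritic cell markers, fell by 7.63 ± 0.43. The scavenger receptor-like Fcrls had 0 UMIs in members and 75 in macrophages, at least 33.9-fold lower against a floor of 3 counts over the members. Plet1, Dcstamp and Pf4 had 2, 1 and 1 UMIs in members against 459, 159 and 89, ratios of 311 (counting interval 85.7 to 2579), 216 (38.2 to 8575) and 121 (21.1 to 4823). These completed the 10 largest falls.

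Adhesion genes were the list with the most calls upward beside the non-classical genes. Of 15 tested 10 were higher and 1 lower, against 10.6% of all genes higher and 6.34% lower. Spn ran from 71.7 to 175 CPM against 0 to 21.9 CPM (3.91 ± 0.42), Itgal was 2.73 ± 0.26 higher, Itga4 1.89 ± 0.16, Itgb7 1.65 ± 0.23 and the hyaluronan receptor Cd44 1.45 ± 0.15. Itgax, which encodes CD11c, fell by 1.20 ± 0.19. All 4 tested markers given with the rule were higher, with Ifitm6, an interferon-induced membrane protein, at 224 over 302 to 603 CPM against 0 over 21.9 to 57 CPM (3.95 ± 0.40) and the haptoglobin gene Hp 2.08 ± 0.36 higher. Of 10 inhibitory receptors and ligands 5 were higher, with Clec4a1, Clec4a3, Havcr2 (TIM-3, 1.40 ± 0.18) and Vsir (VISTA, 1.09 ± 0.17) among them. Clec4a1 and Clec4a3 were given with the rule and are no independent evidence. The PD-1 ligand gene Pdcd1lg2 fell by 2.59 ± 0.31.

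Other lists were mixed against the macrophages, where 10.6% of all genes were higher and 6.34% lower. Of 14 cytokine genes 3 fell, with Cxcl16 by 2.55 ± 0.24 among them, and Tgfb1 rose by 0.80 ± 0.14. Of 16 interferon-stimulated genes 5 were higher and 0 lower, for example Ifi27l2a (1.27 ± 0.26) and Oasl2 (1.19 ± 0.27), and leaving out 1 hashtag gave 2 to 7. Of 10 lipid-handling genes 4 fell, with Lpl by 3.39 ± 0.31, and 2 rose. Among heat shock genes only Hspa1b was called (2.08 ± 0.45, higher), a call lost without the block and with the other hashtag assignment, and 1 to 3 genes of the list were called higher when 1 hashtag was left out. Genes outside the lists that rose most were Hpgd (4.54 ± 0.53), Nxpe4 (4.61 ± 0.59), Ccdc88c (3.86 ± 0.47), 6430548M08Rik (3.81 ± 0.45), Serpinb2 with 151 UMIs against 2 (ratio 55.6, 15.1 to 464) and G0s2 with 90 against 1 (66.3, 11.6 to 2648). Eno3, Spn, Ifitm6 and Fabp4 (67 UMIs against 1, ratio 49.4, 8.56 to 1979) are the listed genes among the 10 largest rises.

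Against all 771 other Csf1r cells, 1464 of 9225 genes were called (15.9%), 717 higher (7.77%) and 747 lower (8.1%), and 611 and 796 with TMM. Many of the lower genes, such as Cd3g, Cd8a, Kit and Ccr7 with 0 UMIs in members, belong to T and dendritic cells that the rule removed through Cd3e, Cd3d and Flt3, so this direction is partly set by the choice of cells. The upper end was led by genes named above: Hpgd (3.65 ± 0.40), Slc12a2 (3.53 ± 0.29), Fabp4 (3.49 ± 0.57), Treml4 (3.33 ± 0.29), Ceacam1 (3.06 ± 0.27), Nxpe4 (2.93 ± 0.39), Eno3 (2.92 ± 0.36), Serpinb2 (2.78 ± 0.47), Ldlrad3 (2.63 ± 0.27) and Skint3 (2.52 ± 0.33). Of 17 non-classical genes 14 were higher and 0 lower. Nr4a1 was 1.02 ± 0.17 higher here. Compared only with the cells that met every other criterion, 599 genes were called, 390 higher and 209 lower.

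The size of the population was next compared between groups. Among Csf1r cells the members made up 31.0%, 15.3% and 26.4% in EV h1, h7 and h8 and 35.1%, 22.0% and 34.9% in WT h3, h5 and h9. The groups overlapped, with means of 24.2% ± 8.05 (SD, n = 3) and 30.7% ± 7.51 (n = 3; 2-sided exact permutation p = 0.5, where 3 against 3 cannot go below 0.1). Among all kept cells the means were 4.69% ± 2.37 in EV and 6.44% ± 2.19 in WT (n = 3 each, exact permutation p = 0.5). With every cell thinned to 2000 UMIs before the rule was applied the means were 20.1% ± 3.72 and 26.6% ± 8.53 (n = 3 each, exact permutation p = 0.3). Adjusted over these 3 tests each p was 0.5. A permutation test of 3 hashtags against 3 could not have passed 0.05 for a difference of any size. Members with 5 or more UMIs of Ace plus Adgre4 were 38.3% (31.2% to 45.9%) of EV and 54.4% (44.8% to 63.7%) of WT members, intervals that treat cells as independent and do not cover the spread between hashtags, in libraries of unequal depth.

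**Figure D4:**
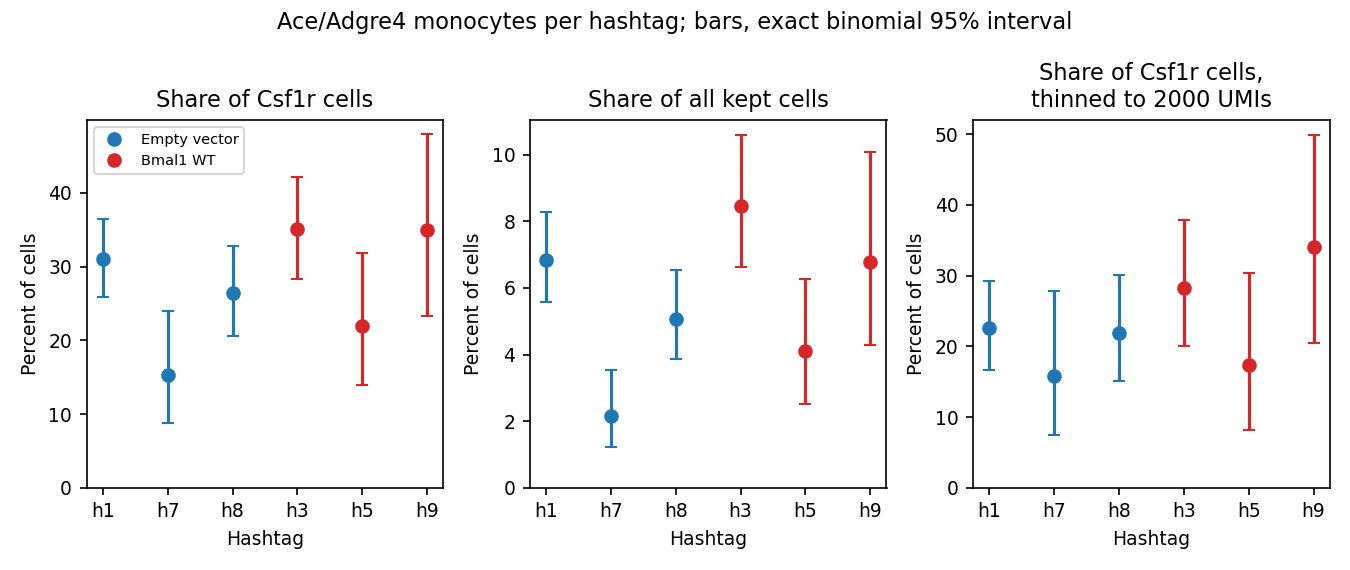
Members as a percent of Csf1r cells, of all kept cells and of Csf1r cells after thinning to 2000 UMIs, for each of the 6 hashtags with exact binomial 95% intervals. In all 3 shares the EV hashtags (15.3% to 31.0% of Csf1r cells) and the WT hashtags (22.0% to 35.1%) overlap.

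Within the members, WT was compared with EV over the hashtag sums. The clearest pattern was a lower level of interferon-stimulated genes in WT, led by Ifit1 and Isg15, beside a higher level of the heat shock genes Hspa1a and Hspa1b, but no single gene passed the adjusted threshold. Of 7884 genes edgeR called 0 (0%). Before adjustment 559 genes had a p under 0.05 (7.09%), 150 of them higher (1.9%) and 409 lower (5.19%) in WT. DESeq2 called 2 genes, Slfn5 and AY036118, which were named because of these calls. In 1029 genes (13.1%) the hashtags of the groups did not overlap, 393 higher (4.98%) and 636 lower (8.07%) in WT. A sum over a hashtag cannot tell a lower level per cell from fewer cells that express a gene.

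Interferon-stimulated genes are switched on together when type I interferon activates the factor ISGF3, which binds a DNA element of tandem TTTC repeats. Of the 16 listed genes 15 were lower in WT, 11 of them at an unadjusted p under 0.05 against 5.19% of all genes, and 10 without overlap of the groups against 8.07%. The list's median log2 difference was -0.99, against -0.06 for all genes, and it lay between -1.25 and -0.72 over 17 settings, with 7 to 12 genes at an unadjusted p under 0.05. Leaving out WT h5 gave 8 of 16 and a median of -0.72. Ifit1, which binds foreign RNA, was at 155, 297 and 152 CPM in EV h1, h7 and h8 and at 54.1, 8.96 and 34.1 CPM in WT h3, h5 and h9. The groups were apart, by -2.29 ± 0.43 (edgeR unadjusted p = 0.000199, adjusted p = 0.218). Isg15, the ubiquitin-like modifier, was at 353, 440 and 386 CPM in EV and at 209, 175 and 195 CPM in WT, a difference of -0.99 ± 0.19 (edgeR adjusted p = 0.218). Rsad2, which encodes viperin, was at 527, 727 and 576 CPM in EV and at 111, 44.8 and 360 CPM in WT (-1.87 ± 0.48, edgeR adjusted p = 0.485). Usp18, which removes Isg15 from proteins, was at 98.8, 134 and 123 CPM against 46.8, 4.48 and 43.8 CPM. WT h5, with 20 members, was the lowest sample of Ifit1, Isg15, Rsad2 and Usp18. Summed over the list, members stood at 6034, 6898 and 6024 CPM in EV and at 4913, 2788 and 4398 CPM in WT. Ifi27l2a, the most abundant of the list, was alike in both, at means of 1952 and 1919 CPM.

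The promoters of Ifit1, Isg15 and Rsad2 are shown because the group comparison is described on these genes and their upstream bases hold the element's letters. Each is the 250 bases before the RefSeq start in GRCm38.p6, read 5′ to 3′ on the gene's strand, with matches to TTTCNNTTTC on either strand in capitals.
Ifit1, chr19:34640639-34640888, plus strand: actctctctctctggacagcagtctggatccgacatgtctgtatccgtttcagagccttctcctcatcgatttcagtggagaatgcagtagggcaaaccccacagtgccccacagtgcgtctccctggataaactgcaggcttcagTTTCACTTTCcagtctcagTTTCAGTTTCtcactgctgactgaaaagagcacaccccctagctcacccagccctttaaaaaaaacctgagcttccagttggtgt
Isg15, chr4:156200819-156201068, minus strand: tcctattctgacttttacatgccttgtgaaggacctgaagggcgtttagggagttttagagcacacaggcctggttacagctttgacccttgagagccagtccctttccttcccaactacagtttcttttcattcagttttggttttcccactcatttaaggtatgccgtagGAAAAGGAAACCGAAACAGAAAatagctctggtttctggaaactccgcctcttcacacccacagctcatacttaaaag
Rsad2, chr12:26456453-26456702, minus strand: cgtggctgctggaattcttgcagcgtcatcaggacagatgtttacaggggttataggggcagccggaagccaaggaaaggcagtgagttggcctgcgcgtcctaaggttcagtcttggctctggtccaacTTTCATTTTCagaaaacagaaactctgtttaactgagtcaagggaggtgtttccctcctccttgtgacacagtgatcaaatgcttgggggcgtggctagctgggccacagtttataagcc
Ifit1 held 2 matches, from 104 bases before the start, Isg15 3 overlapping ones between 78 and 66 bases before it, and Rsad2 1 at 120 bases. The letters were found in 6 of the 10 listed genes with a promoter in the RefSeq table (60%), against 235 of 6270 promoters of genes tested here (3.75%) and 936 of 27025 in all (3.46%). The genes of the list are known targets, so this share describes them and says nothing of what bound in these cells.

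In the other Csf1r cells the groups overlapped for Ifit1. It was at 201, 11.3 and 147 CPM there in EV and at 77.8, 75.9 and 22.6 CPM in WT, with EV h7 the lowest sample. Summed over the list, the other Csf1r cells stood at 5908, 2201 and 5459 CPM in EV. In WT they stood at 4062, 2172 and 1505 CPM, so only EV h7 fell among the WT values. The difference between groups of the member-to-other contrast was -1.35 ± 0.79 for Ifit1 (edgeR adjusted p = 0.783), -0.43 ± 0.46 for Isg15 and -0.90 ± 0.95 for Rsad2. Over the 16 listed genes it was positive for 9 and negative for 7, with a median of 0.22 and 0 called. These data thus do not show that the group difference in the interferon-stimulated list is another one in members than in other Csf1r cells. Over both groups together, 5 of the 16 genes were higher in members than in other Csf1r cells and 0 lower. Over all genes 7.77% were higher, and the list's median log2 difference was 0.44. Leaving out 1 hashtag gave 1 to 5 higher.

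**Figure D5:**
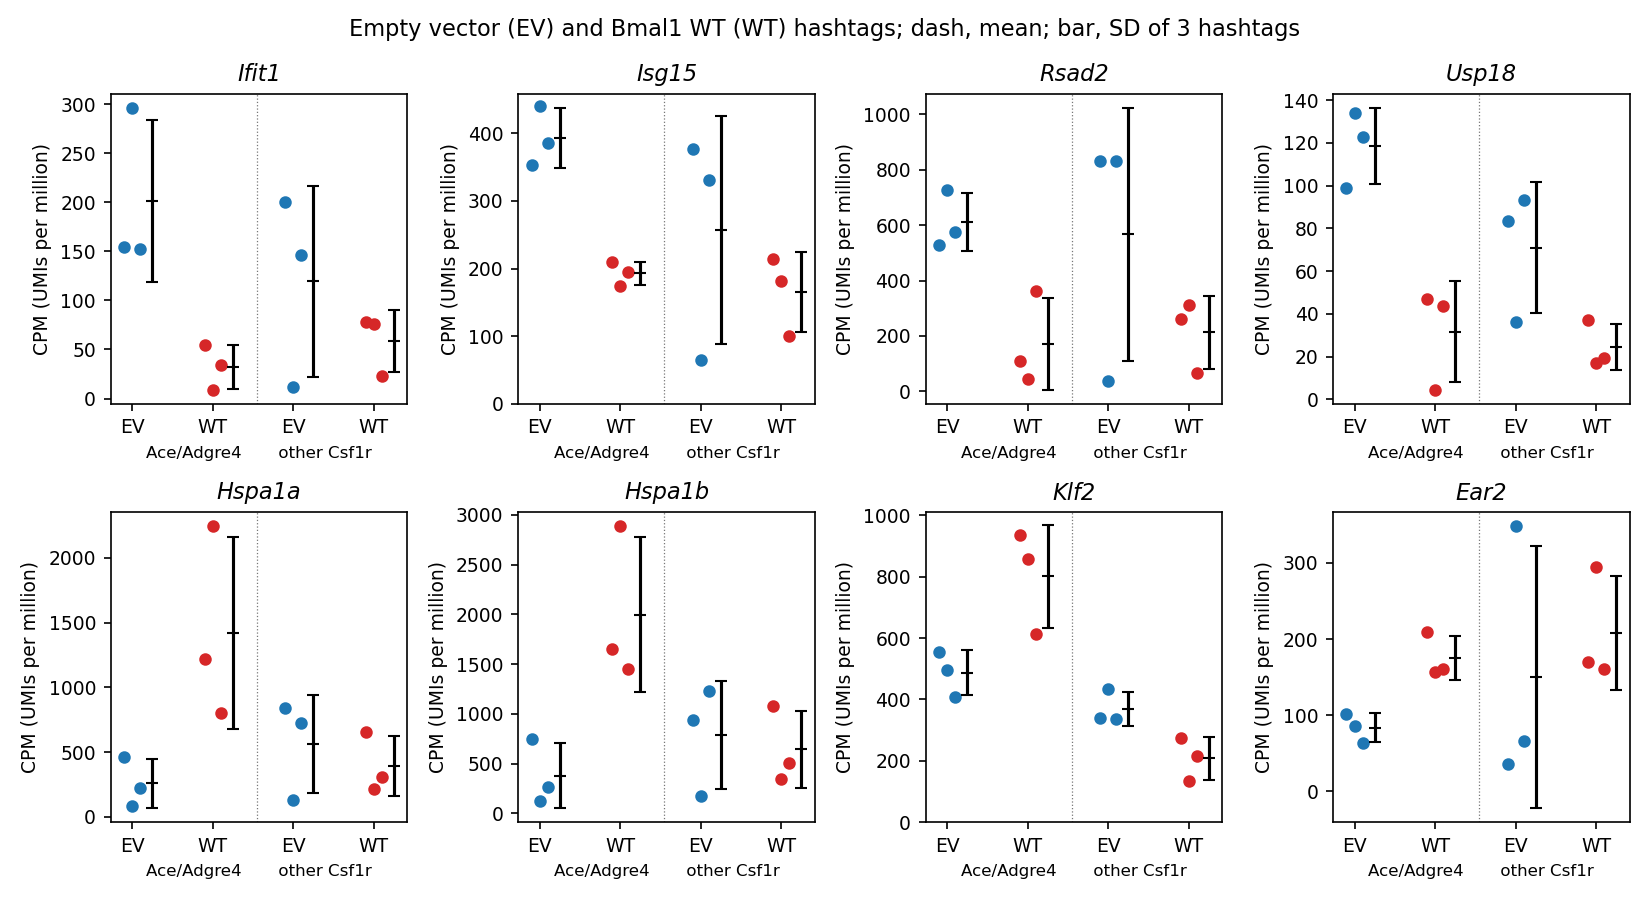
Level in CPM per hashtag of Ifit1, Isg15, Rsad2, Usp18, Hspa1a, Hspa1b, Klf2 and Ear2 in EV and WT, in members and in other Csf1r cells, with the mean (dash) and SD (bar) of 3 hashtags. Isg15 in members is at 353 to 440 CPM in EV and 175 to 209 CPM in WT, and Hspa1a in members at 86.1 to 464 CPM in EV and 804 to 2245 CPM in WT.

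Hspa1a and Hspa1b had the opposite sign. Hspa1a, an inducible chaperone gene, was at 464, 86.1 and 224 CPM in EV and at 1219.5, 2245 and 804 CPM in WT, a difference of 2.31 ± 0.45 (edgeR adjusted p = 0.218). Its neighbour and near-copy Hspa1b, whose reads may be split with it, was at 747, 124 and 261 CPM against 1652, 2886 and 1451 CPM (2.28 ± 0.46, edgeR adjusted p = 0.223). The groups of both did not overlap, and Hspa1b passed the adjusted threshold without EV h1. The heat shock and dissociation list as a whole was split, with 5 of 10 genes higher and 5 lower in WT, and its summed level overlapped, at 12067, 8974 and 9876 CPM in EV and 11006, 15126 and 10477 CPM in WT. Of the 10 genes 4 were higher at an unadjusted p under 0.05 against 1.9% of all genes, and Junb was lower. These genes also respond to tissue dissociation and to handling, which the labels do not record, and the part of handling was not tested.

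No gene of the monocyte state lists was called. Serpinb2 was at 32.2, 38.3 and 25.6 CPM in EV and 77.5, 94.1 and 132 CPM in WT (1.68 ± 0.32, edgeR adjusted p = 0.218), and Ear2 at 101, 86.1 and 63.2 against 209, 157 and 161 CPM. Of 18 non-classical genes 4 were higher at an unadjusted p under 0.05 against 1.9% of all genes: Ear2, Gngt2 (421, 325 and 254 against 689, 462 and 692 CPM), Klf2, a factor of quiescence and vascular homing (553, 497 and 408 against 934, 856 and 614 CPM), and Cd300e with 38 UMIs in all. Of 10 classical markers 4 were lower at an unadjusted p under 0.05 against 5.19% of all genes, with Ly6c2 (953, 1186 and 620 against 620, 368 and 268 CPM), F13a1 and Ms4a4c among them. Of the 4 tested markers given with the rule 3 were lower in WT, 1 of them at an unadjusted p under 0.05, Ifitm6 (-0.61 ± 0.26), with a list median of -0.08; with TMM factors or DESeq2 2 of the 4 were lower and none had such a p. The lowest EV value of Ly6c2 (h8) and its highest WT value (h3) were both 620 CPM. Members with 5 or more UMIs of the rule's genes were also the larger share in WT, as given above, and their part in these differences was not tested. Ccl24 (19.8, 0 and 12 against 58.5, 506 and 185 CPM) was the other gene among the 5 with the smallest p upward. Downward these were Ifit1, Isg15, AY036118 (-1.33 ± 0.25), Col18a1 (-5.23 ± 0.96) and Plat (-3.26 ± 0.63). The hashtags of Col18a1 overlapped, at 57.2, 0 and 44.4 against 1.46, 0 and 0 CPM. Arntl, which encodes Bmal1, had 31 UMIs in all members, at 8.32, 47.8 and 5.12 CPM in EV and 13.2, 17.9 and 9.74 CPM in WT, and of 10 tested clock genes none had an unadjusted p under 0.05. The authors' paper describes these inserts in YUMM2.1 cells transduced with lentivirus, and not in monocytes. Levels of Arntl and of clock genes in members are therefore no check of the insert.

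Whether the contrast of members with other Csf1r cells differed between EV and WT was tested as an interaction. The edgeR test called 74 of 9225 genes (0.802%), 8 with a positive difference (0.0867%), meaning that members stood higher relative to the other cells in WT than in EV, and 66 with a negative one (0.715%). The 8 were Hspa1a (3.04 ± 0.45), Serpinb2 (3.23 ± 0.56), Hspa1b (2.83 ± 0.49), the syndecan Sdc1 (2.73 ± 0.60), Nxpe4 (2.42 ± 0.55), Klf2 (1.56 ± 0.27), the kinase Sik1 (1.28 ± 0.30) and the chemokine receptor Cxcr4 (1.07 ± 0.25). The sign of the contrast itself turned for some of them. Hspa1a in members was below the other cells in 3 of 3 EV hashtags (other cells 840, 130 and 721 CPM) and above them in 3 of 3 WT hashtags (653, 212 and 305 CPM). Sdc1 in members was at 13.5, 0 and 44.4 CPM in EV against 90.1, 22.6 and 128 CPM in other cells, and at 23.4, 166 and 53.6 CPM in WT against 43.2, 38.8 and 38.7 CPM, so it was below the other cells in EV and mixed in WT. Klf2 was at 340, 434 and 337 CPM in other Csf1r cells of EV and 273, 136 and 216 CPM in those of WT, so it stood lower in WT there and higher in WT among members. None of the 74 calls held without the cells that carried markers of other cell types, 2 were made without the cells over 30000 UMIs, Hspa1a and Hspa1b, 1 with the other hashtag assignment and 0 without the hashtag block. The 10 named genes with a negative difference were Col18a1, Nedd4, Cd63, Sparc, Serpinh1, Plod2, Cpe, Bgn, Cald1 and Plat (-10.77 to -4.82). Col18a1 was at 57.2, 0 and 44.4 CPM in EV members against 1.85, 0 and 2.58 CPM in other cells, and at 1.46, 0 and 0 CPM in WT members against 61.3, 213 and 4.83 CPM, so its sign turned too. Without the cells that carried markers of other cell types Serpinh1, Plod2 and Cpe were not tested. The same held for Col18a1, Serpinh1, Plod2, Cpe, Bgn, Cald1 and Plat without the cells over 30000 UMIs. The cause of the lost calls was not tested.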

How the data were processed

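Single-cell RNA libraries of 2 groups, Empty vector and Bmal1 WT, were analysed. The authors deposited raw UMI counts per gene and droplet, with hashtag counts, made with Cell Ranger 6.1.2 per the header of the counts, on the mm10 mouse build. Droplets with at least 200 genes and at most 20% mitochondrial UMIs were kept. Each hashtag was called from a 2-component Gaussian mixture on log counts, and cells with none or several were left out of sums per hashtag. No doublet caller was run and doublets were kept. Counts were summed per hashtag and population, genes with at least 50 UMIs (20 within members) were tested with edgeR 4.0.16 in R 4.3.3 (quasi-likelihood, total UMIs as library size, Benjamini-Hochberg adjustment over all genes tested, hashtag as block between populations, since both populations of a hashtag are 1 sample), and the SE is the log2 difference divided by the root of F. DESeq2 1.42.0, TMM factors, other filters, thinning and left-out hashtags were alternatives. The fits were tested on simulated data. CPM are UMIs per 1000000 UMIs of a sum. Intervals and floors cover counting error only.

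Members, lists and tests were chosen with earlier results of these data known. Named genes are the listed genes, the 10 largest called changes per direction with 1 sign in every hashtag (rule and mitochondrial genes left out), and within members the 5 smallest unadjusted p per direction. The alternative without cells over 30000 UMIs was chosen after seeing the data. Some listed genes are not reported here.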

Additional observations from a re-analysis of the deposited data

Results flagged for a closer look

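For 18 genes the contrast of members with other Csf1r cells differed between WT and EV by the edgeR interaction test. Members stood higher relative to the other cells in WT than in EV for Hspa1a (3.04 on the log2 scale), Klf2 (1.56), Serpinb2 (3.23), Hspa1b (2.83), Sdc1 (2.73), Nxpe4 (2.42), Sik1 (1.28) and Cxcr4 (1.07). They stood lower in WT than in EV for Col18a1 (-10.77), Nedd4 (-8.69), Cd63 (-4.82), Sparc (-7.39), Serpinh1 (-7.86), Plod2 (-8.17), Cpe (-9.24), Bgn (-8.26), Cald1 (-6.52) and Plat (-6.41). The contrast itself changed sign between the groups in every hashtag for Hspa1a, Hspa1b and Serpinh1, and in every hashtag not tied at 0 for Col18a1 and Bgn. For Nedd4 and Plod2 members stood above the other cells in EV h1 and h8, but below them in EV h7 and in every WT hashtag. None was called without the cells that carried markers of other cell types, where Serpinh1, Plod2 and Cpe were not tested. Without the cells over 30000 UMIs only Hspa1a and Hspa1b were called, and Col18a1, Serpinh1, Plod2, Cpe, Bgn, Cald1 and Plat were not tested.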

How the results depend on the processing

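Against Ly6c2 monocytes the count of called genes was 331 with DESeq2, 323 without the replicate block and 374 after thinning, and 297 (without WT h3) to 589 when 1 hashtag was left out, with 355 without EV h1. Against C1q-high macrophages it was 812 with DESeq2, 441 after thinning and 754 (without WT h3) to 1114 with 1 hashtag left out. Against all other Csf1r cells it was 638 after thinning, 599 against cells that met every other criterion and 799 (without WT h3) to 1395 with 1 hashtag left out. Between groups within members it was 2 with DESeq2, 194 without a filter on low counts (45 higher, 149 lower), 4 after thinning, 1 with the other hashtag assignment and 0 to 1 with 1 hashtag left out, where the 1 was Hspa1b without EV h1. No block could be fitted there, since the groups share no hashtag. For the interaction it was 19 with DESeq2, 206 without the filter, 1 with the other hashtag assignment, 0 without cells carrying markers of other cell types, 2 without cells over 30000 UMIs, 0 without the replicate block and 26 (without WT h5) to 92 with 1 hashtag left out. The interaction of Sparc turned to 0.51 without cells over 30000 UMIs, and those of Isg15 and Rsad2, neither called, ranged from -0.99 to 0.15 and from -2.20 to 0.14 with 1 hashtag left out, the upper ends without EV h7. The difference in share ranged from 1.97 to 10.8 points among Csf1r cells, 0.479 to 2.92 among all cells and 2.74 to 11.1 after thinning when 1 hashtag was left out. The cause of these changes was not tested. EV h7 had 15 members.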
